A study of Mus musculus with 20 samples.

Results

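Almost all mitochondrial proteins are encoded in the nucleus, made in the cytosol and carried into the organelle by protein translocases. The outer membrane translocase (TOM) recognises precursors and passes them through a pore. The presequence translocase (TIM23) and its ATP-driven motor pull cleavable precursors into the matrix, the carrier translocase (TIM22) inserts metabolite carriers, and peptidases and chaperonins then trim and fold what arrives. Soleus is a postural muscle rich in mitochondria, so that this machinery serves a large oxidative compartment there. The genes described here are the protein-coding genes whose symbol begins with Timm or Tomm, 26 in number, and 12 further genes chosen by name: Pam16, Dnajc19, Grpel1, Samm50, Mtx1, Mtx2, Chchd4, Pmpca, Pmpcb, Hspa9, Hspd1 and Hspe1. These 38 members were found among 56941 rows of the count table, and the rule uses names alone.

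RNA was sequenced from whole soleus muscles of C57BL/6J mice in 2 groups of 10. The control mice were sham-irradiated. The mice labelled space received hind-limb unloading for 14 days, ionizing radiation and a stress hormone treatment that the design text places in the diet, all together, so that the effects of the 3 exposures cannot be told apart. A test here compares 10 control with 10 space libraries, and its p weighs the group difference against the spread between these samples.

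Library totals ran from 17336017 to 43424464 counts. Acta1, Ckm and the slow myosin gene Myh7 marked all 20 libraries as skeletal muscle, with at least 5061 CPM (counts scaled to a common library size) of Acta1 in each. These markers also differed between groups: Myh7 had a mean of 10183 CPM in controls and 4650 CPM in space libraries, and Ckm 4100 and 9072 CPM. Of 8 muscle fibre genes tested, 5 were lower in the space group and 3 higher. The largest shifts were those of other myosin genes. Mean CPM in control and space libraries was 10020 and 321 for Myh2, 647 and 13538 for Myh4, and 3613 and 15155 for Myh1. Space replicates 1 to 4 stood apart. Their 9 Schwann cell markers, genes of the myelinating cells of nerve, summed to 396 to 1179 CPM, against 68.4 to 136.8 CPM in space replicates 5 to 10 and 57.4 to 129.96 CPM in controls. Adipocyte markers summed to 70.5 to 169 CPM in those 4 libraries, 9.72 to 68.2 CPM in the other space libraries and 11.0 to 87.2 CPM in controls. All 8 tested Schwann cell markers were higher in the space group, 5 of 7 fibroblast and tendon markers lower and 2 higher, 3 of 6 endothelial markers lower, 1 of 6 macrophage markers higher, and none of 4 adipocyte or 5 blood markers passed. The part of all these in the results was not tested; the counts over all members are therefore also given without the 4 libraries, and the members whose call changes without them (Timm9, Timm29 and Pmpca) are described with both values.

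Of the 38 members, 35 passed the count filter and were tested. In the space libraries 27 were lower and 1 was higher at an edgeR adjusted p under 0.05, and 7 did not pass. Over all 16778 tested genes, 28.9% were lower and 28.7% higher (57.6% in either direction). The median log2 fold change was -0.45 over the tested members and 0.02 over all tested genes. For 22 members (62.9% of those tested) every space library lay below every control, which held for 11.0% of all tested genes. Without space replicates 1 to 4, 25 members were lower and 2 higher, with a median of -0.36. With library size as the only scaling 27 members were lower and 2 higher, while the share of lower genes among all called genes went from 50.2% to 38.7%. In whole muscle, fewer mitochondria-rich fibres and less RNA per fibre cannot be told apart.

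**Figure D1:**
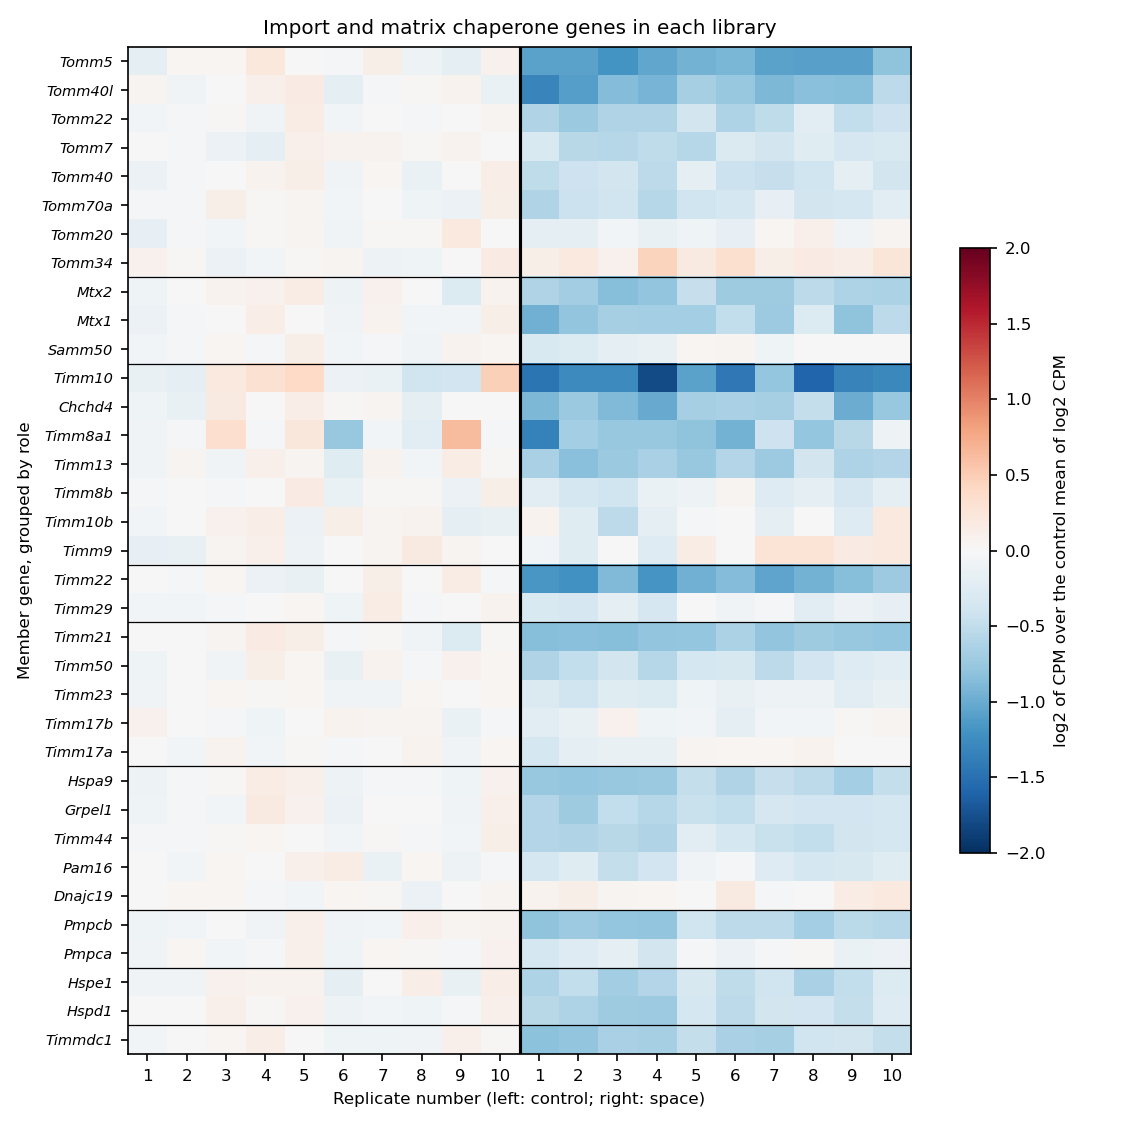
Colour shows, for each of the 35 tested members (rows, grouped by role) and each of the 20 libraries (columns), log2 of CPM minus the mean log2 CPM of the 10 controls. Most rows turn blue in the 10 space libraries. Tomm20, Samm50, Timm9, Timm10b, Timm17a, Timm17b and Dnajc19 did not pass. Tomm34 was the one member that rose, with a log2 fold change of 0.20.

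Member values were lower in space replicates 1 to 4 than in the other space libraries. The members' median deviation from the control mean, in log2 CPM, lay between -0.59 and -0.55 in those 4 libraries and between -0.42 and -0.27 in space replicates 5 to 10. Controls ranged from -0.065 to 0.062, so that neither set of space libraries reached the controls. All 35 tested members had a lower median in replicates 1 to 4 than in replicates 5 to 10, and for 11 of them the 4 libraries lay below all 6 others. The same counts were not made over all tested genes. The shift was not particular to the members. The median deviation of mitochondrial ribosomal protein genes was -0.59 to -0.50 in the 4 libraries and -0.41 to -0.33 in the 6 others. That of nuclear oxidative phosphorylation subunits was -0.74 to -0.63 and -0.56 to -0.38. That of tricarboxylic acid cycle enzymes was -0.64 to -0.50 and -0.39 to -0.10. The scaling factors of the 4 libraries were 1.05 to 1.16, against 0.946 to 1.01 in the other 6.

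Among the members, levels per length were highest for Hspa9 and Hspd1. Length here is that of the merged exons of all annotated transcripts of a gene, so that the ranking also depends on the annotation. In controls Hspa9 reached 119 CPM per kilobase of exon, followed by Hspd1 at 56.3, the small chaperone gene Timm8b at 52.8 and the channel gene Timm23 at 38.2, while Hspe1, the partner of Hspd1, stood at 18.1. Chchd4 at 2.56, Timm8a1 at 1.76 and Timm10b at 1.21 were the lowest of the tested members on this scale. The other 3 members did not pass the filter, and no fold is given for them. Tomm20l, a relative of the receptor gene Tomm20, had no count in any library, which allows at most 0.0691 CPM in the deepest library and 0.173 CPM in the shallowest (counting error only). Timm8a2 had 17 counts in all 20 libraries together and Tomm6, a small TOM subunit, had 37. In the annotation at hand 859 of the 1131 exon bases of Tomm6 also belong to another gene on the same strand, and the sources used here do not say how reads shared between genes were handled.

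Subunits of the outer membrane translocase, with the second pore gene Tomm40l, were mostly lower. With the cytosolic factor Tomm34 counted among them by name, 6 of 8 tested members fell, 1 did not pass (Tomm20) and 1 rose (Tomm34, not a subunit). Tomm5, a small subunit that steadies the pore, had 11.9, 13.8 and 15.8 CPM in the lowest, median and highest control and 5.96, 6.46 and 7.76 CPM in the space libraries. The groups did not overlap, and Tomm5 had the smallest p of all members (2.05-fold lower, log2 fold change -1.03, SE 0.053, edgeR adjusted p = 3.59e-13). Tomm22, the central receptor, had 28.1, 29.2 and 32.7 CPM in controls and 17.6, 20.2 and 25.2 CPM in space libraries. This was a 1.43-fold fall (edgeR adjusted p = 7.25e-09), again without overlap.

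Tomm40 encodes the pore itself and Tomm40l a second form of it. Tomm40 had 25.9, 28.6 and 31.3 CPM in the lowest, median and highest control and 19.8, 21.5 and 24.96 CPM in the space libraries, a 1.30-fold fall (edgeR adjusted p = 2.84e-07). Tomm40l had 32.4, 36.9 and 41.0 CPM in controls and 14.6, 20.1 and 25.5 CPM in space libraries, a 1.82-fold fall (edgeR adjusted p = 3.19e-10). Each space library was below each control for both genes. Of the 5135 exon bases of Tomm40l, 3304 are shared with Nr1i3 on the opposite strand in the annotation at hand, so that its value is uncertain; Nr1i3 itself had 29 counts over all libraries. Tomm70a, the receptor for carrier precursors, went from 80.1 ± 4.38 to 61.5 ± 5.58 CPM (SD, n = 10 each; 1.30-fold lower, edgeR adjusted p = 2.60e-07). Tomm7, another small subunit, fell 1.32-fold (edgeR adjusted p = 2.88e-07).

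Tomm20, the receptor for presequences, had 52.7, 59.1 and 67.6 CPM in the lowest, median and highest control and 51.5, 56.0 and 63.2 CPM in the space libraries. The ranges overlapped widely, and the log2 difference of -0.07 (95% interval -0.16 to 0.02) was not called (edgeR adjusted p = 0.194). With library size as the only scaling its log2 fold change was 0.00879. Tomm34, a cytosolic co-chaperone that handles precursors before import, was the one member that rose. It had 12.6, 13.6 and 15.3 CPM in controls and 14.5, 15.3 and 18.6 CPM in space libraries (15.1% higher, log2 fold change 0.20, SE 0.045, edgeR adjusted p = 0.00126). All 10 space libraries were above the control mean and 5 were above the highest control.

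**Figure D2:**
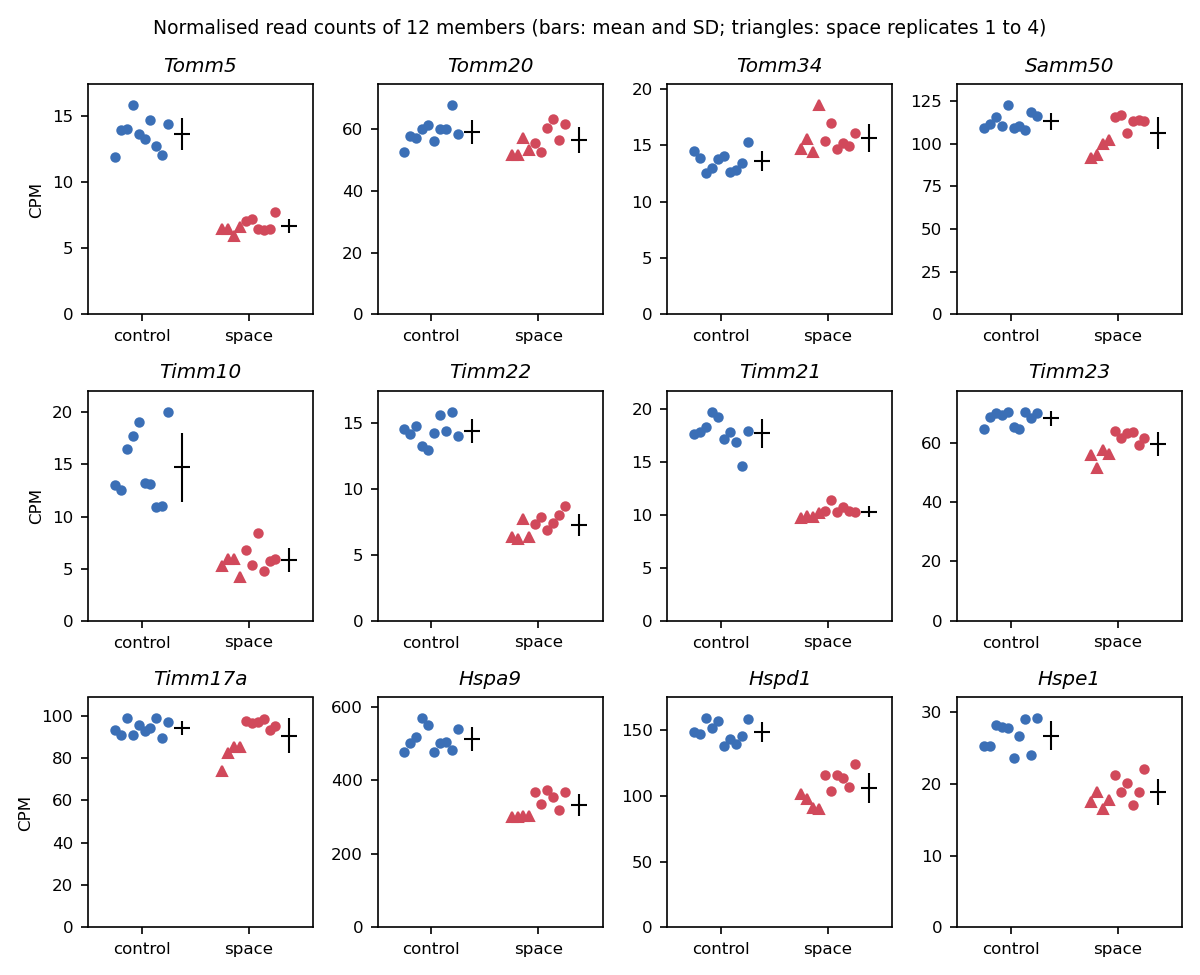
Points give CPM of 12 members in each library (y axes start at 0), with the mean and SD of the 10 control and 10 space libraries as bars; triangles mark space replicates 1 to 4. Tomm5, Timm10, Timm22, Timm21, Timm23, Hspa9, Hspd1 and Hspe1 show no overlap between groups, while Tomm20, Tomm34, Samm50 and Timm17a overlap.

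The sorting and assembly machinery inserts barrel-shaped proteins into the outer membrane. Of its 3 members both metaxins fell and the core subunit did not pass. Mtx2 had 25.8, 31.8 and 34.6 CPM in the lowest, median and highest control and 17.2, 19.6 and 22.6 CPM in the space libraries (1.58-fold lower, edgeR adjusted p = 1.63e-10). Mtx1 went from 11.7 ± 0.702 to 7.46 ± 1.03 CPM (SD, n = 10 each; 1.57-fold lower, edgeR adjusted p = 1.30e-08), and on the opposite strand 759 of its 3584 exon bases are shared with Gm43737 and 318 with Thbs3. Neither metaxin gene overlapped between groups. Samm50, the insertase, had 108, 111 and 123 CPM in controls and 91.5, 109.7 and 117 CPM in space libraries, with a log2 difference of -0.09 (95% interval -0.19 to 0.01; edgeR adjusted p = 0.107). Space replicates 1 to 4 held 91.5 to 102 CPM of Samm50 and replicates 5 to 10 held 106 to 117 CPM. Without those 4 libraries its log2 fold change was 0.0074 (edgeR adjusted p = 0.88).

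In the intermembrane space, Chchd4 oxidises and traps small cysteine-rich proteins, and rings of small TIM chaperones escort hydrophobic precursors. Of 7 tested members 5 fell and 2 did not pass. Timm10 showed the largest fall of all tested members. It had 10.9, 13.2 and 20.0 CPM in the lowest, median and highest control and 4.16, 5.81 and 8.39 CPM in the space libraries (2.52-fold lower, log2 fold change -1.34, SE 0.133, edgeR adjusted p = 8.73e-09). Controls were widely spread, yet the highest space library stayed below the lowest control. Timm9, which forms mixed rings with Timm10, had 12.2, 13.97 and 15.5 CPM in controls and 11.4, 14.5 and 16.6 CPM in space libraries (log2 difference 0.06, 95% interval -0.10 to 0.20; edgeR adjusted p = 0.477). Without space replicates 1 to 4 Timm9 was higher, with a log2 fold change of 0.185 (edgeR adjusted p = 0.0121).

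Chchd4 had 11.7, 13.3 and 15.1 CPM in the lowest, median and highest control and 6.58, 7.89 and 9.50 CPM in the space libraries (1.71-fold lower, edgeR adjusted p = 4.52e-10). Timm13, of the second small ring, fell 1.57-fold from 17.6 ± 1.35 to 11.2 ± 1.05 CPM (SD, n = 10 in each group; by edgeR adjusted p = 5.86e-10). Both genes were free of overlap between groups. The ring partners of Timm13 were Timm8a1 (1.64-fold lower from 2.50 CPM, edgeR adjusted p = 0.000242) and Timm8b (1.16-fold lower from 27.4 CPM, edgeR adjusted p = 0.00128). Both overlapped between groups, and Timm8b shares 81 of its 518 exon bases with Nkapd1 on the opposite strand. Timm10b, a subunit of the carrier translocase, averaged 4.33 CPM in control and 4.01 CPM in space libraries and did not pass (edgeR adjusted p = 0.233). Of its 3582 exon bases, 277 are shared with Arfip2 on the opposite strand and 376 with Gm45799 on the same strand, so that its value is uncertain.

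Both members of the carrier translocase grouped under it fell. Timm22, the channel that inserts metabolite carriers into the inner membrane, had 12.97, 14.4 and 15.9 CPM in the lowest, median and highest control and 6.20, 7.41 and 8.72 CPM in the space libraries. The fall was 1.97-fold without overlap (log2 fold change -0.98 with an SE of 0.059, edgeR adjusted p = 2.11e-12). Timm29, its scaffold partner, was 1.13-fold lower (45.4 against 40.3 CPM, edgeR adjusted p = 0.00187) and did not pass without space replicates 1 to 4 (edgeR adjusted p = 0.0715).

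The presequence translocase is built on a core of Timm23 and a Timm17 protein. Of its 5 members 3 fell, and both Timm17 genes did not pass. Timm23 had 64.6, 69.0 and 70.3 CPM in the lowest, median and highest control and 51.5, 60.2 and 64.0 CPM in the space libraries. Timm23 fell by 12.8% (edgeR adjusted p = 0.000107), and no space library reached the lowest control. Timm21, which links the translocase to the outer membrane and to respiratory complexes, had 14.6, 17.8 and 19.7 CPM in controls and 9.74, 10.3 and 11.4 CPM in space libraries (1.72-fold lower, edgeR adjusted p = 1.34e-12). Timm50, the receptor that takes over precursors, went from 20.1 ± 1.18 to 15.2 ± 1.41 CPM (SD, n = 10 each; 1.32-fold lower, edgeR adjusted p = 3.69e-07).

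Timm17a, the more abundant Timm17 gene per length, had 89.6, 93.4 and 98.6 CPM in the lowest, median and highest control and 73.6, 94.0 and 98.2 CPM in the space libraries. Its median was thus nearly the same in both groups, and the log2 difference was -0.06 (95% interval -0.16 to 0.04; edgeR adjusted p = 0.288). The low values were again those of space replicates 1 to 4, at 73.6 to 85.2 CPM, and without them the log2 fold change was 0.0401. Timm17b averaged 13.1 ± 0.663 CPM in control and 12.6 ± 0.873 CPM in space libraries (SD, n = 10 each; log2 difference -0.06, 95% interval -0.15 to 0.02; edgeR adjusted p = 0.244). With library size as the only scaling the log2 fold changes of Timm17a and Timm17b were 0.0166 and 0.0156.

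The import motor pulls precursors into the matrix by cycles of ATP hydrolysis in Hspa9, the mitochondrial HSP70. Of its 5 members 4 fell and 1 did not pass. Hspa9, the most abundant member, had 477, 503 and 568 CPM in the lowest, median and highest control and 299, 328 and 373 CPM in the space libraries (1.54-fold lower, log2 fold change -0.62, SE 0.051, edgeR adjusted p = 3.36e-10). Even the highest space library of Hspa9 lay well below the lowest control, and replicates 1 to 4 held the lowest values, 299 to 304 CPM. Timm44, which tethers Hspa9 to the channel, had 38.7, 39.6 and 43.7 CPM in controls and 26.5, 28.97 and 34.2 CPM in space libraries (1.37-fold lower, edgeR adjusted p = 7.36e-09). Grpel1, the exchange factor that releases ADP from Hspa9, fell 1.39-fold from 34.9 ± 2.33 to 25.1 ± 2.04 CPM (SD, n = 10 in each group; by edgeR adjusted p = 1.01e-08). It shares 411 of its 3528 exon bases with Tada2b on the opposite strand in the annotation at hand.

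The motor also holds a pair of J-type proteins that set its ATP cycle. Of these Pam16 passed and Dnajc19 did not. Pam16 was 1.21-fold lower (13.7 against 11.4 CPM, edgeR adjusted p = 0.000134). Dnajc19 averaged 12.5 CPM in control and 13.2 CPM in space libraries, with a log2 difference of 0.08 (95% interval 0.01 to 0.14; edgeR adjusted p = 0.102). Its call depended on the scaling and on the filter: Dnajc19 passed as higher under upper-quartile factors (edgeR adjusted p = 0.00613), under library size alone (0.0113) and where 10 libraries had to reach a CPM of 1 (0.034). Dnajc19 shares 178 exon bases with Fxr1, and Pam16 shares 455 with Glis2, each on the opposite strand in the annotation at hand.

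The matrix processing peptidase cuts off presequences. Its catalytic subunit, Pmpcb, had 60.8, 63.8 and 69.6 CPM in the lowest, median and highest control and 37.2, 42.0 and 49.0 CPM in the space libraries (1.55-fold lower, log2 fold change -0.63, SE 0.050, edgeR adjusted p = 1.04e-10). Its partner Pmpca, which grips the substrate, had 109, 115 and 123 CPM in controls and 89.4, 106 and 117 CPM in space libraries (1.11-fold lower, edgeR adjusted p = 0.00742). Pmpcb was free of overlap between groups while Pmpca overlapped. Pmpca did not pass with upper-quartile factors (edgeR adjusted p = 0.0741) or without space replicates 1 to 4 (edgeR adjusted p = 0.214), and it shares 874 exon bases with Inpp5e on the opposite strand.

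The matrix chaperonin folds imported proteins inside a barrel of Hspd1 (HSP60) closed by a lid of Hspe1 (HSP10). Both genes fell, and by nearly the same factor. Hspd1 had 138, 148 and 159 CPM in the lowest, median and highest control and 90.2, 105 and 124 CPM in the space libraries (1.40-fold lower, log2 fold change -0.49, SE 0.054, edgeR adjusted p = 2.53e-08). Hspe1 had 23.6, 27.3 and 29.1 CPM in controls and 16.5, 18.9 and 22.1 CPM in space libraries (1.42-fold lower, log2 fold change -0.50, SE 0.056, edgeR adjusted p = 3.18e-08). Neither gene overlapped between groups. Pseudogenes resemble both genes, and the sources used here do not say how multi-mapping reads were handled.

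Hspd1 and Hspe1 lie head to head, and their promoter windows overlap. In the RefSeq table of build GRCm38.p6 the Hspe1 window shares 285 bases with 1 of the listed Hspd1 windows. The part from 123 to 17 bases before the Hspe1 start, at chr1:55088025-55088131 on the plus strand, is shown because it holds every motif match found in the Hspe1 window. Capitals mark matches to the heat shock element (GAA, TTC and GAA with 2 free bases between each), the ETS motif CCGGAAG and the nuclear receptor (ERR) motif AAGGTCA, searched on both strands; the heat shock and ETS matches overlap in the first run of capitals.
Hspe1: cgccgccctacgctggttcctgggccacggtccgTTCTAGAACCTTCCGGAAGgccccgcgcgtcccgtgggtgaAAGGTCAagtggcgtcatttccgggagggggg
A match is a description of letters and not of a site in use.

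Timmdc1 matches the name rule, but encodes an assembly factor of respiratory complex I rather than a translocase subunit. It fell 1.51-fold from 25.7 ± 1.33 to 17.1 ± 1.84 CPM (SD, n = 10 in each group; by edgeR adjusted p = 1.59e-09), and all 10 space libraries were below the lowest control.

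**Figure D3:**
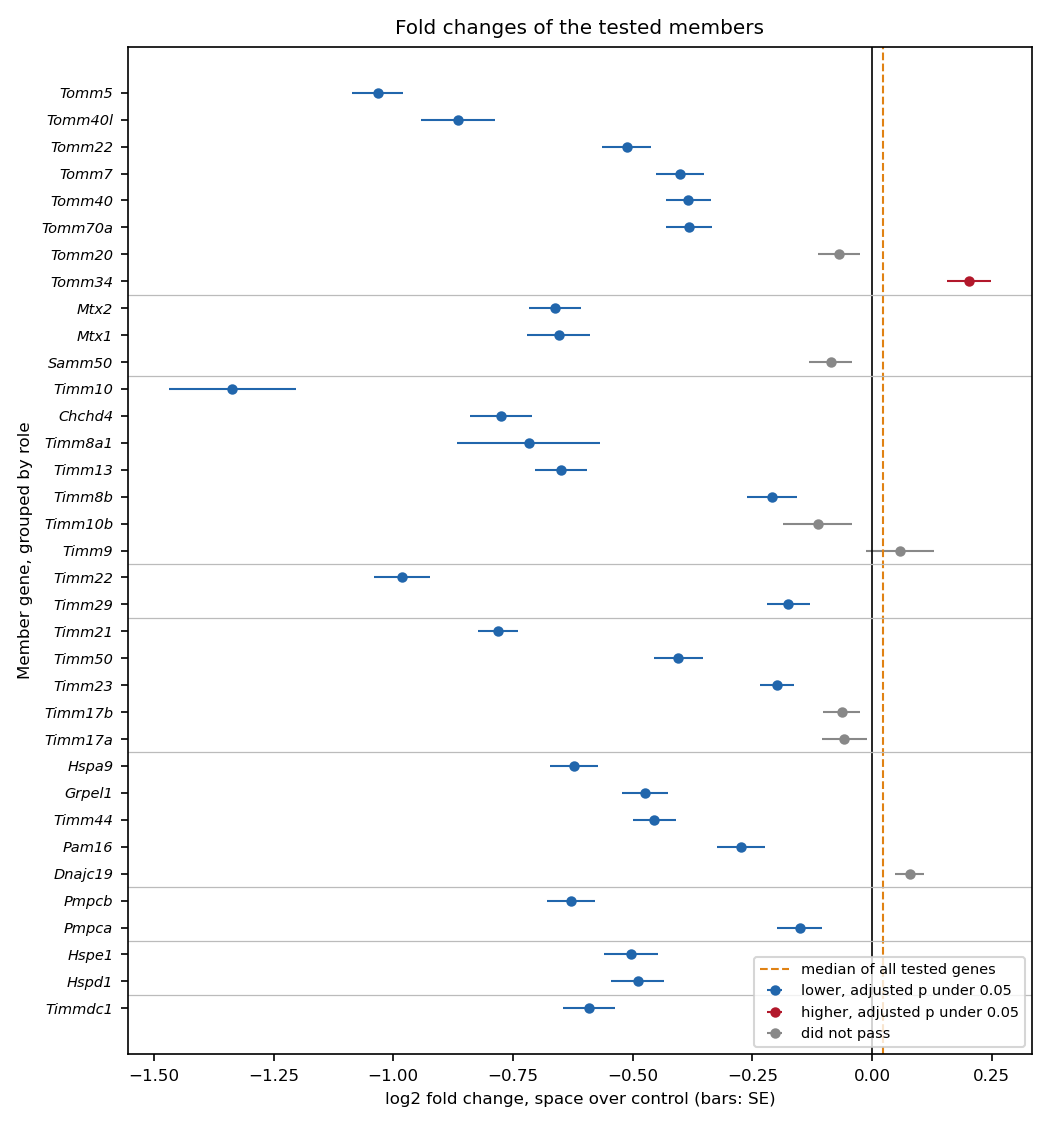
Points give the log2 fold change (space over control) of each tested member, with SE as bars, grouped by role; blue and red mark members that passed as lower or higher, grey those that did not, and the dashed line is the median of all tested genes. Values run from a 2.52-fold fall for Timm10 to a log2 fold change of 0.20 for Tomm34.

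Members that work as partners or are copies of each other were compared within each library, where the scaling cancels. Ratios of counts were tested for 6 pairs by 2-sided permutation tests with Benjamini-Hochberg adjustment over the 6. The ratio of Timm9 to Timm10 had 0.667, 0.956 and 1.42 as the lowest, median and highest control value and 1.95, 2.55 and 3.46 in space libraries. All 10 space libraries exceeded all controls (2.60-fold higher, log2 difference 1.38 ± 0.137 SE, permutation adjusted p = 6.00e-05). The ratio of Pmpca to Pmpcb moved from 1.66, 1.79 and 1.90 to 2.32, 2.44 and 2.88, also without overlap (1.39-fold higher, log2 difference 0.48 ± 0.036 SE, permutation adjusted p = 6.00e-05). For both pairs the raw p of 2.00e-05 is the smallest the resampling can give.

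The pore genes shifted against each other as well. The ratio of Tomm40 to Tomm40l had 0.693, 0.774 and 0.939 as the lowest, median and highest control value and 0.870, 1.07 and 1.37 in space libraries (1.41-fold higher in 10 of 10 against the control mean, permutation adjusted p = 0.00012). Timm8a1 against Timm8b was 1.42-fold lower, in 9 of 10 space libraries (permutation adjusted p = 0.00906), and did not pass without space replicates 1 to 4 (exact permutation adjusted p = 0.0663).

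Within the chaperonin and within the Timm17 pair no difference in ratio was detected. Hspd1 to Hspe1 had a median of 5.63 in controls and 5.58 in space libraries, and the log2 difference of 0.0087 had a 95% interval from -0.086 to 0.103 (permutation adjusted p = 0.989). Timm17a to Timm17b stood at 7.26 and 6.99, with a log2 difference of 0.00076 and an interval from -0.101 to 0.103 (permutation adjusted p = 0.989). Hspd1 and Hspe1 share 112 exon bases on opposite strands in the annotation at hand, of 1474 in Hspe1, so that without a known strand setting their ratio is uncertain. The intervals leave room for differences of about 0.1 log2 units in either direction.

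**Figure D4:**
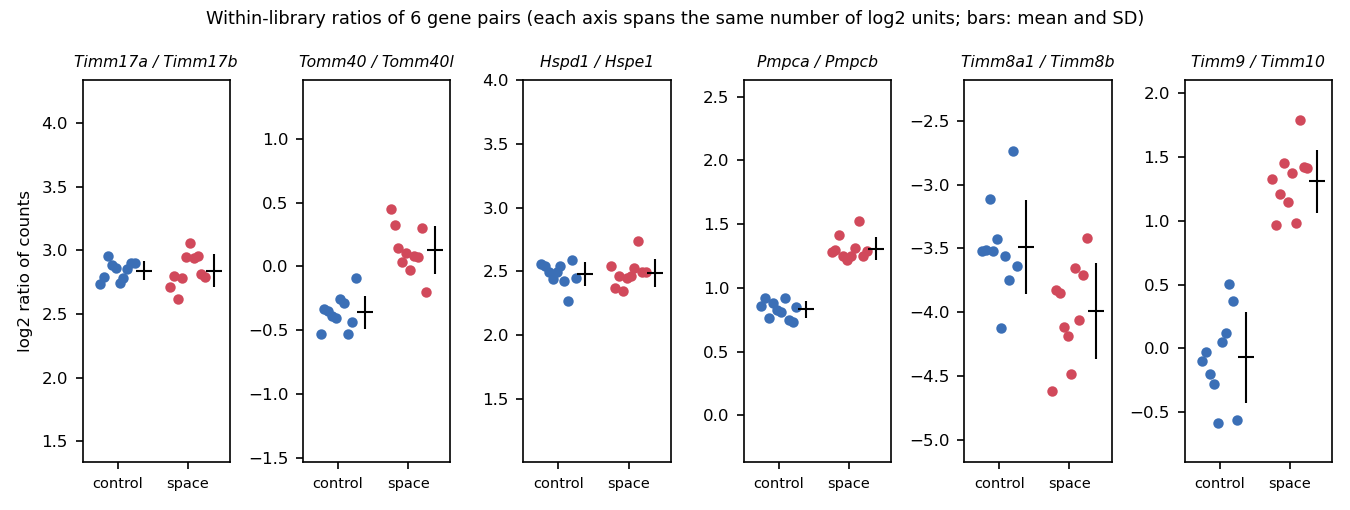
Points give the log2 ratio of counts of 6 gene pairs in each control and space library, with the mean and SD as bars; the y axes have different centres and the same span. Timm9 to Timm10 and Pmpca to Pmpcb separate the groups fully, while Timm17a to Timm17b and Hspd1 to Hspe1 overlap between the groups.

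Other genes of the import pathway, from lists chosen with earlier results of these data known, held mostly lower genes as well. Of 17 further import factors 13 were lower, 2 higher and 2 did not pass, with a median log2 fold change of -0.28. By smallest p these were Dnajc15, a J-protein related to Dnajc19 (1.55-fold lower, edgeR adjusted p = 4.00e-11), Dnajc11 of the outer membrane (1.36-fold lower), Armc1 (1.33-fold lower) and the insertase gene Mtch1 (1.31-fold lower). The 2 that rose, named after their values were seen, were Immp1l, a subunit of the inner membrane peptidase (24.9% higher), and Pitrm1, which degrades cut presequences (11.8% higher).

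Of 14 mitochondrial proteases and folding factors 9 were lower, 1 higher and 4 did not pass (median log2 fold change -0.19). Ppif, the matrix cyclophilin, fell 1.99-fold (edgeR adjusted p = 4.42e-11). The prohibitin genes Phb2 and Phb fell 1.36-fold and 1.29-fold, and the matrix J-protein gene Dnaja3 1.41-fold. Trap1, the mitochondrial HSP90, was the one that rose (1.09-fold, edgeR adjusted p = 0.00835; named after its value was seen).

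Of 12 cytosolic factors that deliver precursors 7 were lower, 2 higher and 3 did not pass (median log2 fold change -0.26). St13, a partner of HSP70, was 1.38-fold lower, the J-protein gene Dnaja4 2.40-fold, the HSP70 and HSP90 adaptor Stip1 1.34-fold and Hsp90ab1 1.27-fold. The 2 higher genes, named after their values were seen, were Ubqln2 (1.18-fold) and Dnaja2 (1.21-fold).

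Of 12 tested regulators of mitochondrial and chaperone genes 7 were lower, 2 higher and 3 did not pass (median log2 fold change -0.25). Esrra, a nuclear receptor that drives oxidative genes, fell from 78.4 to 48.3 CPM, or 1.62-fold (edgeR adjusted p = 2.12e-10). Atf5, a factor of the mitochondrial unfolded protein response, fell from 126.6 to 74.4 CPM, or 1.70-fold (edgeR adjusted p = 1.15e-09). Tfam, which maintains mitochondrial DNA, fell 1.35-fold, and Gabpb1, a partner of the ETS factor GABPA, 1.20-fold. Ddit3 had the largest fall of the list (1.99-fold, edgeR adjusted p = 0.000243), and Ppargc1a fell 1.66-fold (edgeR adjusted p = 0.000351). Both overlapped between groups and are named after their values were seen. Nrf1, a factor known to act on import and respiratory genes, rose 1.16-fold (edgeR adjusted p = 0.00016), and Hsf1, the heat shock factor, 1.06-fold (edgeR adjusted p = 0.0224); these 2 are named after their values were seen.

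The members were set beside other mitochondrial gene groups. Of 78 mitochondrial ribosomal protein genes 75 were lower (96.2%), of 83 tested nuclear subunits of oxidative phosphorylation 79 (95.2%) and of 14 tricarboxylic acid cycle enzymes 14, against 77.1% of the members. The medians were -0.44, -0.54 and -0.38, against -0.45 for the members, whose log2 fold changes ran from -1.34 to 0.20. The summed counts of the members per 100 counts of the oxidative phosphorylation subunits were 10.4 to 11.0 in controls and 10.9 to 12.5 in space libraries. These are descriptions, and the difference between the lists was not tested.

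**Figure D5:**
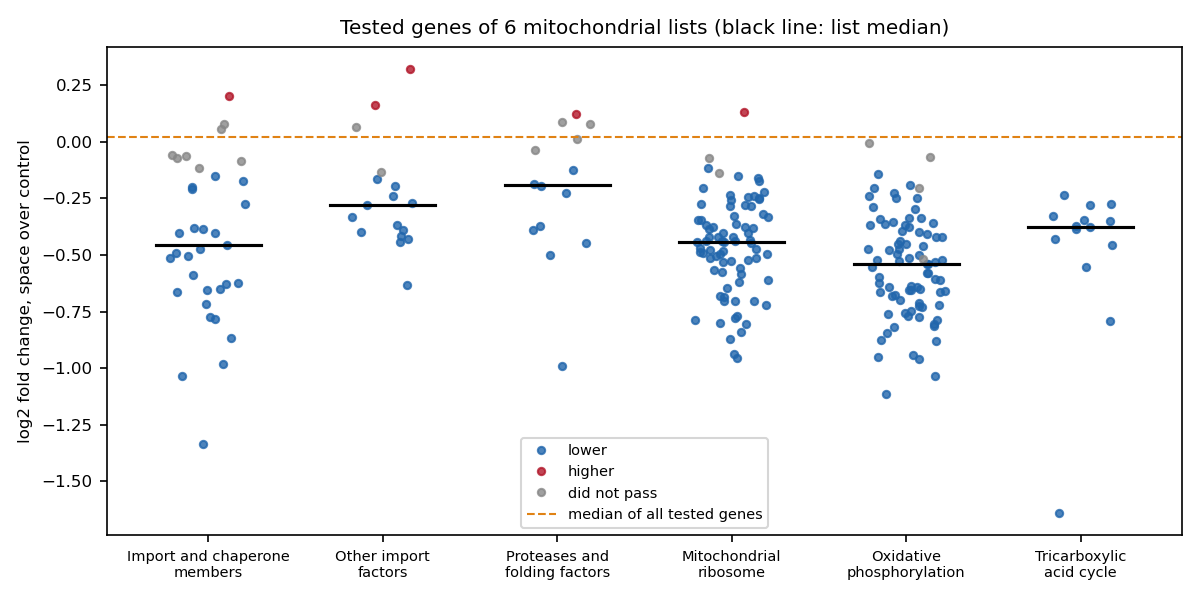
Points give the log2 fold change (space over control) of the tested genes of 6 mitochondrial lists, coloured by whether they passed as lower, higher or not, with black lines at the list medians and a dashed line at the median of all tested genes. The member list reaches from -1.34 to 0.20, and only a few genes of the ribosome and oxidative phosphorylation lists lie outside the lower calls.

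Promoter windows, which run from before to just after each gene's start, were matched by symbol in the RefSeq table (GRCm38.p6) for 34 of the 38 members. The ETS motif CCGGAAG, on either strand, lay in 17 of these 34 (50.0%), against 9.93% of 27025 genes in the table and 18.9% of the tested genes with a window. Among tested genes the share was 23.1% of those lower, 14.7% of those higher and 18.2% of those that did not pass. The ETS motif was present for 14 of 23 members that fell and 1 of 7 that did not pass, Timm10b. Hspd1 and Hspe1, both among the 14, share their matches to it. The site whose centre lies nearest the start is shown for members of different roles, with every match to the motif in capitals and 10 bases on each side, in the direction of the gene.
Tomm22: ctctcttccgCTTCCGGtgtcctacag
Mtx2: gtcagcgacgCCGGAAGtgcttggtcg
Timm10: tcggcgttttCTTCCGGatcaaagaag
Timm23: gagccggcgcCCGGAAGgtcagcgtgg
Grpel1: acctcctcacCTTCCGGggctcccaga
Pmpca: gctcggcgggCCGGAAGccagcgccga
Pmpcb: gagtcatgacCCGGAAGtacatctcca
They lie at chr15:79670863-79670889, chr2:74825808-74825834, chr2:84826995-84827021, chr14:32201865-32201891 (minus strand), chr5:36464971-36464997, chr2:26389285-26389311 and chr5:21737134-21737160, in this order. Members with the motif included Pmpca and Pmpcb, which fell by different factors, Timm10, and Tomm34, the member that rose. Any part of the motif in these changes was not tested.

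The other motifs were rarer. The NRF1 motif (GCGCA, 1 free base, GCGC) lay in 5 of 34 member windows (14.7%, against 5.19% of all genes and 10.8% of tested genes), those of Chchd4, Hspd1, Pam16, Timm8b and Tomm20. The ERR motif lay in 5 (14.7%, against 5.38% of all genes and 3.9% of tested genes): Hspd1 and Hspe1, which share it, Timm23, Timm44 and Timm8b. The heat shock element lay in 3 (8.82%, against 0.662% of all genes and 0.618% of tested genes): Hspd1 and Hspe1, which share it, and Timm9. These counts describe letters in the windows, and no test was made of them.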

How the data were processed

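Soleus RNA of 20 C57BL/6J mice was sequenced after ribosomal RNA depletion from 90 ng of total RNA, per the labels' protocols. The authors deposited unnormalised counts of reads for each Ensembl gene; the submitters' processing notes name Subread, featureCounts 1.5.1, MultiQC 1.15, edgeR and the build GRCm39, and these sources do not state the strand setting or annotation release. Columns were matched to samples by library code, and groups come from the titles. Symbols, gene classes, exon lengths and overlaps come from GENCODE M21 (GRCm38), matched by Ensembl identifier for 52000 of 56941 rows (97.6% of counts); no GRCm39 coordinates are printed.

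Counts were fitted in R 4.3.3 with edgeR 4.0.16 over the whole table: filterByExpr (minimum count 10, total 15), TMM scaling, robust quasi-likelihood test, Benjamini-Hochberg adjustment, threshold 0.05. CPM uses TMM-scaled library sizes. SE and the 95% interval (t distribution) refer to mean log2 CPM (prior count 2) in space minus control libraries. A count of 0 allows up to 3 counts. Ratios were compared with permutation tests of 100000 resamples (scipy 1.17.1), exact where libraries were left out. In simulated data of 16778 genes 28.9% of 83 1.25-fold changes, 61.8% of 68 1.5-fold changes and 91.8% of 49 3-fold changes were found. Of 116 calls 5 were false. Far fewer genes changed there than in the real data, where 57.6% were called, and the adjustment depends on that share. The percentages found therefore do not carry over to the real comparison.

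Members and lists were chosen with earlier results of these data known. Members named in full were 17 chosen by role, the 10 others with the smallest p and those called higher; in each further list, up to 4 by smallest p. Alternatives were relative log expression factors, upper-quartile factors, library size alone, DESeq2 1.42.0, voom with quality weights (limma 3.58.1), no filter, a filter asking for 1 CPM in 10 libraries, removal of mitochondrially encoded genes and the 10 most abundant, a block for the sample number, space replicates 1 to 4 left out, each library left out, and for ratios 1 added count.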

Additional observations from a re-analysis of the deposited data

Results flagged for a closer look

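Among 70 sets of 10 values (35 tested members in 2 groups), 2 held a library far from the others by Dixon's criterion, where chance gives about 1 in 20. Timm13 stood at 13.7 CPM in space replicate 8, with the next space library at 11.8 CPM. Tomm22 stood at 32.7 CPM in control replicate 5, with the next control at 30.5 CPM.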

How the results depend on the processing

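The count of 27 lower members held with relative log expression factors, library size alone, DESeq2, voom, both filters, dominant genes left out and each library left out; it was 26 with upper-quartile factors and 25 without space replicates 1 to 4. Higher members numbered 2 with upper-quartile factors, with library size alone, with a CPM of 1 in 10 libraries and without space replicates 1 to 4, against 1 otherwise. The log2 fold change turned sign for Timm17a (0.0016 with upper-quartile factors, 0.0166 with library size alone, 0.0401 without space replicates 1 to 4), Tomm20 (0.00879) and Timm17b (0.0156) with library size alone, and Samm50 (0.00739) without those 4 libraries; none of these passed, and the cause was not tested. The Timm8a1 to Timm8b log2 ratio difference was -0.431 without those 4 libraries. With each library left out in turn the log2 ratio difference ran from -0.0231 to 0.0258 for Timm17a to Timm17b and from -0.019 to 0.0242 for Hspd1 to Hspe1, and the members' median from -0.48 to -0.44. Among the further lists, proteases and folding factors that were higher numbered 3 with library size alone or upper-quartile factors and 2 without space replicates 1 to 4, against 1. Higher regulators numbered 1 with no filter or without control replicate 3, and 3 with library size alone or upper-quartile factors, against 2. With either of these scalings lower proteases and folding factors numbered 7, against 9, and higher import factors 3, against 2.

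Sample numbers are shared between groups. Same-numbered samples correlated at -0.132 to 0.0982, and no sample correlated best with its own number (0 of 10). The own number ranked 2 for samples 2, 8 and 9, 3 for samples 1 and 6, and 4 to 10 for the others. A link between same-numbered samples was thus neither shown nor excluded. With the sample number as a block 27 members were lower and 1 higher, with a median of -0.46. Depth limits Timm8a1, with 34 counts in its lowest library, and Tomm6, Timm8a2 and Tomm20l, which could not be tested.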
